A study of Mus musculus with 2 samples.

Results

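The 45 genes described here carry fatty acid oxidation in the liver or are textbook targets of PPARa, the nuclear receptor that turns that program on. They were taken by name from the mRNA table, with 1 RefSeq transcript for each gene, the one with the highest mean level. All 45 have a row among the 20317 genes of the table, and 42 of them reached 1 RPKM (reads per kilobase of transcript, scaled to the library's size) in at least 1 library. Acot3, Ppargc1a and Fgf21 were listed at 0 in both libraries, which here means under 1 RPKM. The study compared primary hepatocytes of wild-type male C57BL/6J mice, 5 weeks old at the start, given intraperitoneal mineral oil or 20% CCl4 in mineral oil at 2.5 ml CCl4 per kg body weight. Both groups were injected 2 times a week, for 8 weeks per the labels and for a shorter course per the methods. CCl4 is bioactivated in hepatocytes and injures the liver into fibrosis. Each condition is 1 library from cells isolated by pronase and collagenase perfusion and a density gradient, and the number of mice behind a library is not stated. No value below therefore has a replicate, no test was possible, and each difference compares 2 libraries, not 2 treatments.

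As background, long-chain fatty acids enter the hepatocyte with the help of CD36 and FATP proteins, are bound by FABP1 and are activated to acyl-CoA by the ACSL enzymes. The carnitine shuttle of CPT1A, SLC25A20 and CPT2 brings them into mitochondria, where beta-oxidation shortens them and the electron transfer flavoprotein passes on the electrons. Peroxisomes begin the oxidation of very long chains, and microsomal CYP4A enzymes oxidise the far end of the chain. PPARa binds DNA as a partner of RXR at direct repeats of AGGTCA with 1 base between them, and Cyp4a10, Cyp4a14, Ehhadh, Acot1, Pdk4 and Fgf21 are among its classic targets in mouse liver.

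The start regions of the genes were searched for that repeat because PPARa acts through it. RefSeq start regions of the GRCm38.p6 build, 250 bases before to 50 bases after the start, were at hand for 37 of the 45 genes. They were not at hand for Cyp4a14, Acaa2, Cyp4a12a, Decr1, Cyp4a10, Crat, Vnn1 and Angptl4. AGGTCANAGGTCA, read on both strands with at most 2 mismatches, was found in the start regions of 7 of these 37 genes (7 of 40 regions, since Acot3, Acsl1 and Bdh1 have more than 1). Of all 32851 start regions of this length, 1268 or 3.86% held such a match, and 3.10% of the 12320 that belong to genes measured here. The match is a description of letters, not of a bound site. The 7 matches are shown in capitals with 8 bases on either side, 5′ to 3′ along the gene's own strand, and the coordinates given after them cover the whole printed stretch and name the strand of the gene. Those of Echs1 and Slc25a20 read along the gene and the others read as its reverse complement.
Fabp1: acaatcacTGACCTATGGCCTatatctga
Acot4: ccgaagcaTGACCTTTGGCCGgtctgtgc
Cd36: tggttctcTGGCCTCTGACTTacttggat
Echs1: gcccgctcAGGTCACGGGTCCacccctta
Etfa: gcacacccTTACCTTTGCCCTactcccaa
Plin2: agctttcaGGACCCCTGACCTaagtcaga
Slc25a20: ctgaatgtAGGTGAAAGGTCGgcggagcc

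The Fabp1 match (in chr6:71199804-71199832, gene on the plus strand) differs from the repeat by 1 base and ends 55 bases before the start. The Cd36 match (in chr5:17835939-17835967, gene on the minus strand) has 2 mismatches and ends 51 bases before the start of the region's transcript. The Acot4 match (in chr12:84038358-84038386, gene on the plus strand) touches the start of the region's transcript, which lies inside the listed span of the gene. The Echs1 match (in chr7:140116484-140116512) and the Etfa match (in chr9:55512300-55512328), both in genes of the minus strand, end 71 and 65 bases before the start. The Plin2 match (in chr4:86670264-86670292, gene on the minus strand) lies 225 to 213 bases before the start, and the Slc25a20 match (in chr9:108662134-108662162, gene on the plus strand) begins 6 bases after it. The 7 genes did not share a direction in the libraries. Fabp1 was 3.70-fold lower and Cd36 was 3.59-fold higher in the CCl4 library, and the other 5 lay within 2-fold, as given below with their steps.

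The libraries were of similar depth, with totals of 57992111 reads for oil and 64655100 for CCl4, recovered from the steps in the deposited values. The marker genes of liver cell types differed between them as follows. Each of the 12 hepatocyte markers was lower in the CCl4 library, 6 of them by more than 2-fold, and their summed level was 26988 RPKM in oil and 14336 RPKM in CCl4, with Alb (albumin) the most abundant at 8656 and 6476 RPKM. All 10 stellate cell and myofibroblast markers were more than 2-fold higher, with a summed level of 78.1 RPKM in oil and 888 RPKM in CCl4, and Pdgfrb was listed at 0 in oil. The most abundant of them was Dcn (decorin) in oil, at 36.1 RPKM, and Col3a1 (a collagen chain) in CCl4, at 290.1 RPKM. Of 8 Kupffer cell and macrophage markers, 5 were more than 2-fold higher, none was more than 2-fold lower, and the sum was 1132 and 3165 RPKM, led by Lyz2 (lysozyme) at 321 and 1645 RPKM. The 7 sinusoidal endothelial markers were all higher, 1 of them by more than 2-fold, with a sum of 448 and 751 RPKM, led by Clec4g at 238 and 380 RPKM. Of 8 pericentral hepatocyte markers 4 were more than 2-fold lower (sum 1148 and 378 RPKM, led by Cyp2e1 in oil and Glul in CCl4), as were 4 of 7 periportal markers (sum 1911 and 943 RPKM, led by Ass1) and 2 of 4 erythroid markers (sum 2297 and 1530 RPKM, led by Hbb-bs). Of 5 cholangiocyte markers 2 were more than 2-fold higher (sum 50.9 and 170.2 RPKM, led by Spp1), with Sox9 listed at 0, and of 6 T, B and NK cell markers 1 was (sum 19.5 and 33.8 RPKM, led by Ptprc), with Cd3e and Cd8a listed at 0. The adipocyte markers Adipoq, Cfd and Retn were listed at 0 in both libraries. The part of this mixture in the values below was not tested, and in bulk libraries fewer cells of a type and less RNA per cell cannot be told apart.

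**Figure D1:**
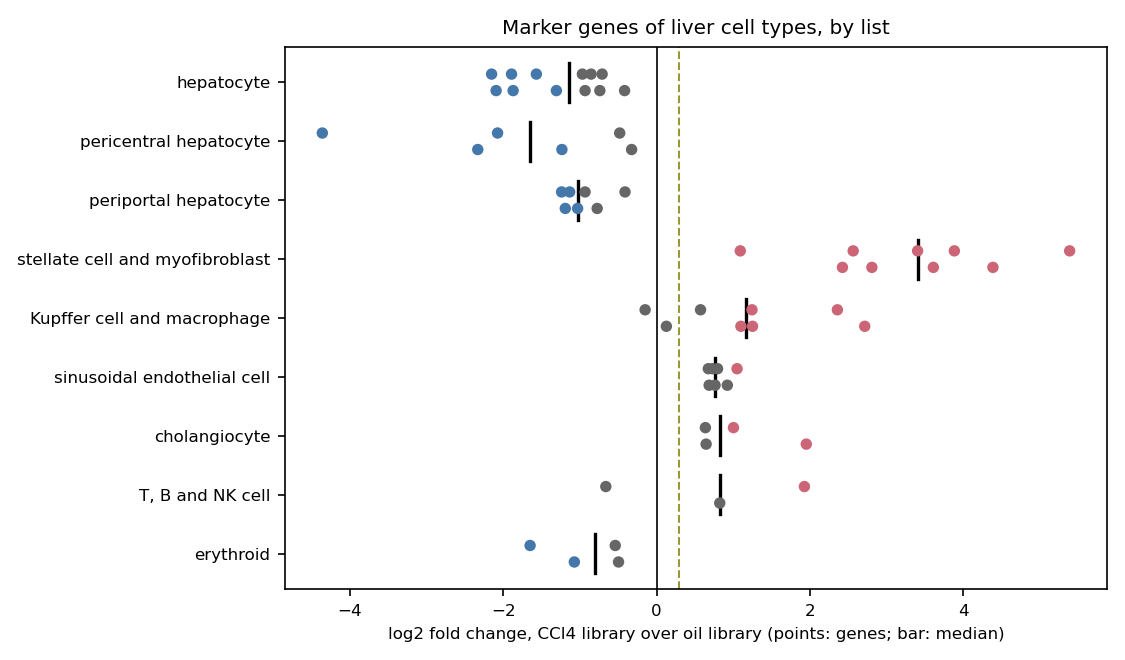
Log2 fold change of CCl4 over oil for each marker gene measured in both libraries, by cell type list, with 1 point per gene and a bar at the list's median. On the deposited scale hepatocyte lists lie left of 0 (medians from -1.66 to -1.03) and stellate cell markers lie right of it (median 3.40), and the dashed line is the median of all genes measured in both (0.30). Red points are at least 1 higher and blue points at least 1 lower.

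Most of the 42 measured genes were lower in the CCl4 library on the deposited scale, though not relative to the median of the hepatocyte markers. The log2 fold change (log2 of the CCl4 over the oil level, each with 0.1 RPKM added) was below 0 for 33 genes and above 0 for 9, with a median of -0.57. Among the 10689 genes measured in both libraries, 32.4% lay below 0. At least 1 lower on the log2 scale were 8 of the 42 genes, or 19.0%, namely Acaa2, Crot, Acaa1b, Decr2, Cyp4a12a, Slc27a2, Fabp1 and Acsl1. Over all 12012 genes tested, 631 or 5.25% were lower by as much. At least 1 higher were 4 genes, or 9.52%, namely Cyp4a10, Cyp4a14, Cd36 and Acot2, against 1859 or 15.5% of all genes tested. Of these 4, Cyp4a10, Cyp4a14 and Acot2 belong to families of near-identical copies, whose reads the counting could split. With Cyp4a10, Cyp4a12a, Cyp4a14, Acaa1a, Acaa1b and Acot1 to Acot4 left out for that reason, a choice made after seeing the data, 1 gene (Cd36) was higher and 6 were lower.

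Those shares depend on the level of the genes, since abundant genes lay lower than the rest. Among the 2159 genes with a mean of at least 20 RPKM, 17.4% were lower and 12.7% were higher by at least 1, with a median log2 fold change of -0.07. Of the 29 fatty acid genes at that level, 7 were lower and 1 (Cd36) was higher, with a median of -0.64. They depend on the scale as well. The median of all 10689 genes measured in both libraries was 0.30, and relative to it the median of the fatty acid genes was -0.87, 16 of them were lower by at least 1 and 4 higher, beside 9.17% and 8.91% of all genes on that scale. Relative to the median of the hepatocyte list, which was -1.14, the median of the fatty acid genes was 0.57, 11 were higher by at least 1 and 1, Cyp4a12a, was lower, beside 76.0% and 0.608% of all genes on that scale. Each scale moves every gene by the same amount, so the change of sign is not particular to the fatty acid genes. Below the hepatocyte list's median were 6 genes, namely Cyp4a12a, Fabp1, Acsl1, Acaa1b, Crot and Slc27a2, and the other 36 lay above it. About 4.3% of all genes measured in both libraries lay below that median, so lying above it is not particular to the fatty acid genes. The same share belongs beside each later count of genes above or below that list. The list itself is spread, since its 12 genes range from -2.15 (Fgb) to -0.42 (Alb) on the deposited scale. Its median lies between Apoa1 at -1.31 and Apoh at -0.97, and Acaa2, Decr2 and Ppara lie between these markers too. Alb, the most abundant marker, lies above the deposited median of the fatty acid genes, -0.57. Differences between genes within a library, given below as ratios, do not depend on the scale.

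**Figure D2:**
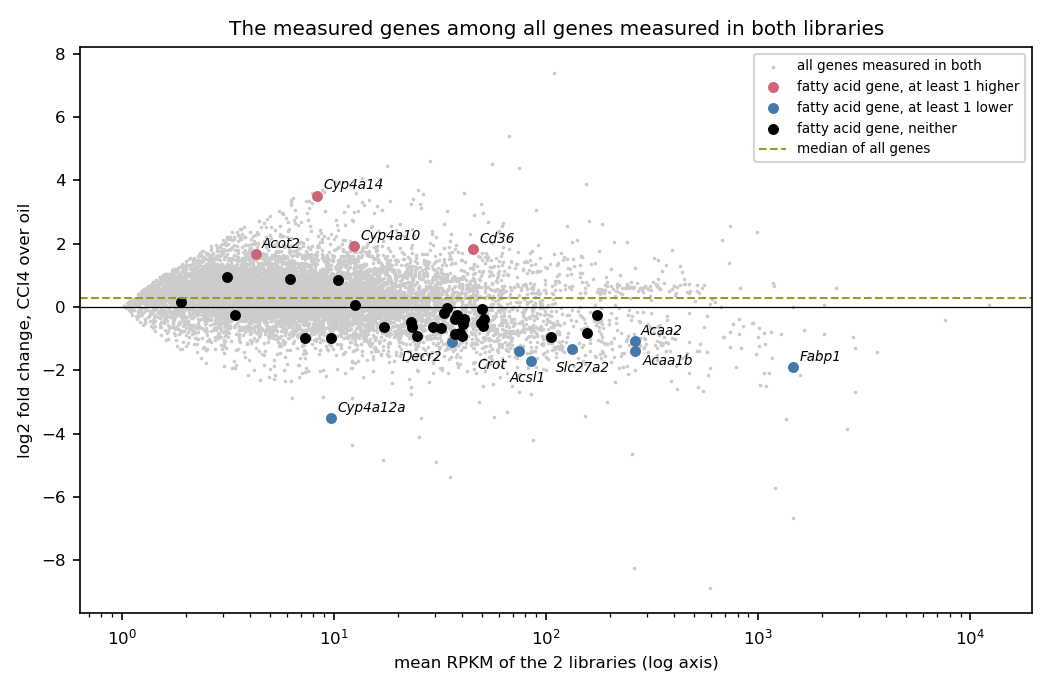
Log2 fold change of CCl4 over oil against the mean RPKM of the 2 libraries (log axis) for the 10689 genes measured in both, with the 42 fatty acid genes in colour or black. Blue genes are at least 1 lower, red genes at least 1 higher and black genes neither, and Cyp4a14 (3.52) and Cyp4a12a (-3.52) stand farthest from 0; on the scale of the hepatocyte list, which moves every gene up by the same amount, all 30 black genes would lie above 0.

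The 11 enzymes of mitochondrial beta-oxidation had log2 fold changes from -1.08 to 0.06, with a median of -0.60. About 4.3% of all genes lay below the hepatocyte list's median, and all 11 enzymes lay above it and below the median of all genes. Acaa2, the thiolase that ends a turn of the cycle and the most abundant of them, was at 355 RPKM in oil and 168 RPKM in CCl4, a log2 fold change of -1.08 with a 95% interval from -1.11 to -1.04. This interval and those below cover the counting error of the reads alone, about 17518 and 9256 for Acaa2 at the shortest transcript length that fits whole reads, and are taken on the ratio with nothing added. Acaa2 was the 1 gene of the 11 past the 2-fold mark. It lay 0.06 above the hepatocyte list's median, between the markers Apoa1 and Apoh that flank that median.

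The 4 acyl-CoA dehydrogenases, which take the first step for chains of different length, did not share a value. Acadvl, for very long chains, was at 140.0 RPKM in oil and 71.9 RPKM in CCl4 (log2 fold change -0.96). Acadl, for long chains, was at 12.3 and 12.8 RPKM (0.06), the 1 enzyme of the 11 that was not lower, and its interval from -0.09 to 0.21 holds 0. Acadm, for medium chains, was at 46.5 and 35.6 RPKM (-0.38), and Acads, for short chains, at 39.1 and 24.6 RPKM (-0.67). The interval of Acadvl, from -1.08 to -0.84, overlaps none of the other 3.

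Echs1, the enoyl-CoA hydratase whose start region holds a match shown above, was at 60.6 RPKM in oil and 39.9 RPKM in CCl4 (-0.60). Hadh, the dehydrogenase for shorter chains, was at 57.5 and 44.4 RPKM (-0.37). The trifunctional protein, which does the last 3 steps for long chains, had both its subunits slightly lower, Hadha at 42.1 and 32.6 RPKM (-0.37) and Hadhb at 41.5 and 34.9 RPKM (-0.25). Their intervals, from -0.45 to -0.28 and from -0.41 to -0.08, overlap. Of the auxiliary enzymes for unsaturated chains, Eci1, an isomerase, was at 48.0 and 26.4 RPKM (-0.86) and Decr1, a reductase, at 20.8 and 13.4 RPKM (-0.63).

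The electron transfer flavoprotein takes the electrons of the acyl-CoA dehydrogenases to the respiratory chain. Its 3 genes were lower in the CCl4 library, none past the 2-fold mark, and all 3 stood above the hepatocyte list. Etfa was at 35.5 RPKM in oil and 22.9 RPKM in CCl4 (-0.63), Etfb at 198 and 113 RPKM (-0.81), and Etfdh, the ubiquinone reductase, at 52.3 and 28.0 RPKM (-0.90). Etfb was the most abundant of the 3 in both libraries.

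In the carnitine shuttle the entry enzyme stood apart from the exit enzyme. Cpt1a, the rate-controlling transferase of the outer membrane, was at 34.4 RPKM in oil and 33.9 RPKM in CCl4, a log2 fold change of -0.02 with an interval from -0.11 to 0.07. Cpt2, the transferase of the inner membrane, was at 32.3 and 17.0 RPKM (-0.92, interval from -1.04 to -0.82). The ratio of Cpt1a to Cpt2 was therefore 1.07 in oil and 2.0 in CCl4. Slc25a20, the carrier between them, was at 27.1 and 19.4 RPKM (-0.48), between the other two.

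The 2 remaining carnitine enzymes went opposite ways. Crat, which handles acetyl and other short groups, was at 4.31 RPKM in oil and 8.06 RPKM in CCl4 (0.89, interval from 0.68 to 1.13, which holds the 2-fold mark). Crot, which readies the shortened chains of peroxisomes for export, was at 108 and 41.5 RPKM (-1.38, interval from -1.44 to -1.31). The sign of each was the same on each scale tried. Relative to the hepatocyte list Crot came to -0.24, no longer past the 2-fold mark, and Crat to 2.03. On that scale 76.0% of all genes were higher by at least 1.

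**Figure D3:**
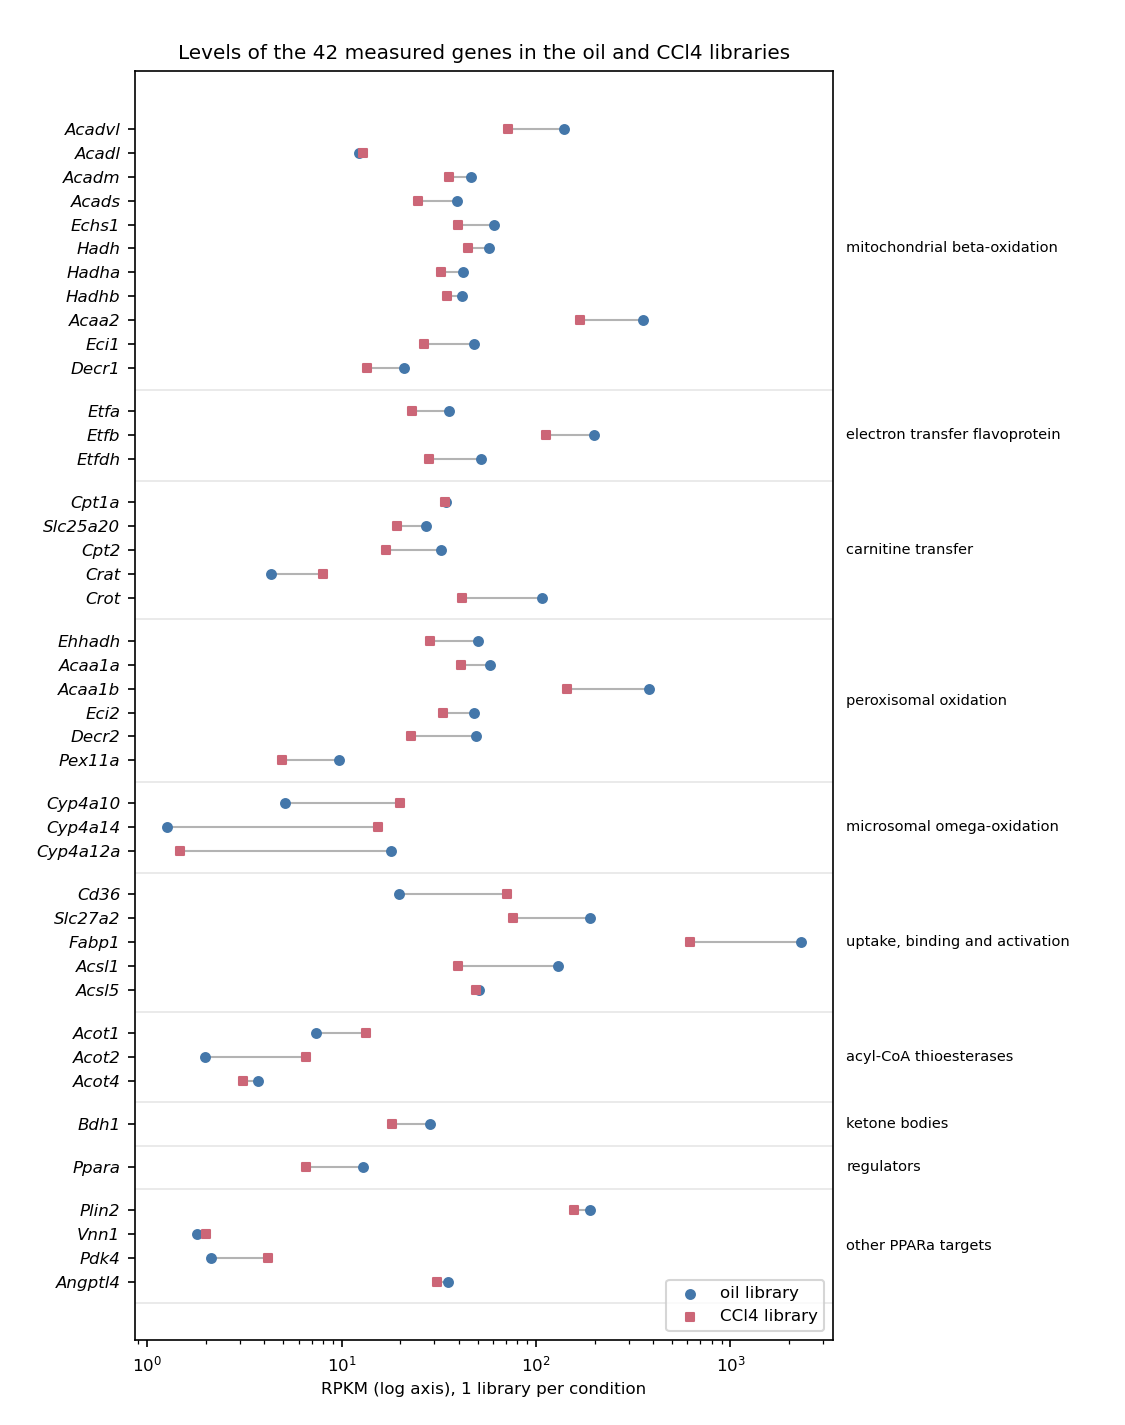
RPKM (log axis) of each of the 42 measured genes in the oil library (circle) and the CCl4 library (square), grouped by step, with 1 library per condition and no error bar. Fabp1 is the most abundant at 2301 and 621 RPKM, and on the deposited scale the squares lie left of the circles for 33 of the 42 genes, on a scale whose choice moves every gene alike. Among all genes measured in both libraries, 32.4% were lower in CCl4.

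The 6 genes of peroxisomal oxidation were all lower in the CCl4 library, with a median log2 fold change of -0.89, 2 of them past the 2-fold mark. All 6 lay below the median of all genes, and 5 lay above that of the hepatocyte list. Acaa1b, a peroxisomal thiolase, was at 379 RPKM in oil and 145 RPKM in CCl4 (-1.39). Its near copy Acaa1a, on the same chromosome, was at 57.6 and 40.9 RPKM (-0.50). Reads of such copies can be assigned to either, and their sum was 437 and 186 RPKM (-1.23). The ratio of Acaa1b to Acaa1a was 6.57 in oil and 3.55 in CCl4.

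Ehhadh, the bifunctional hydratase and dehydrogenase and a classic PPARa target, was at 50.3 RPKM in oil and 28.6 RPKM in CCl4 (-0.81). Eci2, an isomerase found in peroxisomes, was at 48.2 and 33.0 RPKM (-0.54), and its second transcript gave -0.54 as well. Decr2, the peroxisomal reductase for unsaturated chains, was at 49.1 and 22.6 RPKM (-1.11). That is 0.02 above the hepatocyte list's median and, like Acaa2, between the markers Apoa1 and Apoh. Pex11a, which helps peroxisomes divide, was at 9.73 and 4.93 RPKM (-0.97, interval from -1.20 to -0.77), an interval that holds the 2-fold mark.

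The microsomal CYP4A genes held the highest and the lowest log2 fold change of the 42 genes. Cyp4a14 was at 1.26 RPKM in oil and 15.4 RPKM in CCl4, 12.3-fold higher (log2 fold change 3.52, interval from 3.29 to 4.0, on 72 and 998 reads for a length of 1 kb). Cyp4a10 was at 5.12 and 19.8 RPKM, 3.88-fold higher (1.93, interval from 1.74 to 2.17). Cyp4a12a was at 17.9 and 1.47 RPKM, 12.2-fold lower (-3.52, interval from -3.94 to -3.31, on 1035 and 94 reads for a length of 1 kb). Of the 10689 genes measured in both libraries, 18 had a higher value than Cyp4a14 and 13 a lower value than Cyp4a12a.

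These 3 enzymes are neighbours in 1 cluster on chromosome 4 of GRCm38.p6, which holds Cyp4a12a (chr4:115299046-115332815), Cyp4a12b (chr4:115411624-115439034), Cyp4a14 (chr4:115486200-115496158) and Cyp4a10 (chr4:115518287-115533649) in that order, followed by Cyp4a31 and Cyp4a32. Cyp4a12a was the highest of the 3 in oil and the lowest in CCl4, while Cyp4a10 was above Cyp4a14 in both. In oil Cyp4a12a was 14.2 times the level of Cyp4a14 and 3.49 times that of Cyp4a10, and in CCl4 it was 0.095 and 0.074 times as high. All 3 were treated here as members of families of near-identical copies. Reads of near copies can be assigned to either, so their sums are given as listed, with values under 1 RPKM as 0 and therefore no fold. Cyp4a12a and Cyp4a12b together were listed at 23.1 RPKM in oil and 1.47 RPKM in CCl4, and Cyp4a10, Cyp4a31 and Cyp4a32 together at 8.23 and 22.8 RPKM, although Cyp4a32 alone was lower in CCl4. The sum of all 6 genes was listed at 32.5 and 39.7 RPKM, closer to each other than the sums of its parts. Cyp4a12a is also known in mice as a male-predominant gene of the liver, and Cyp4a10 and Cyp4a14 as strong PPARa targets.

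**Figure D4:**
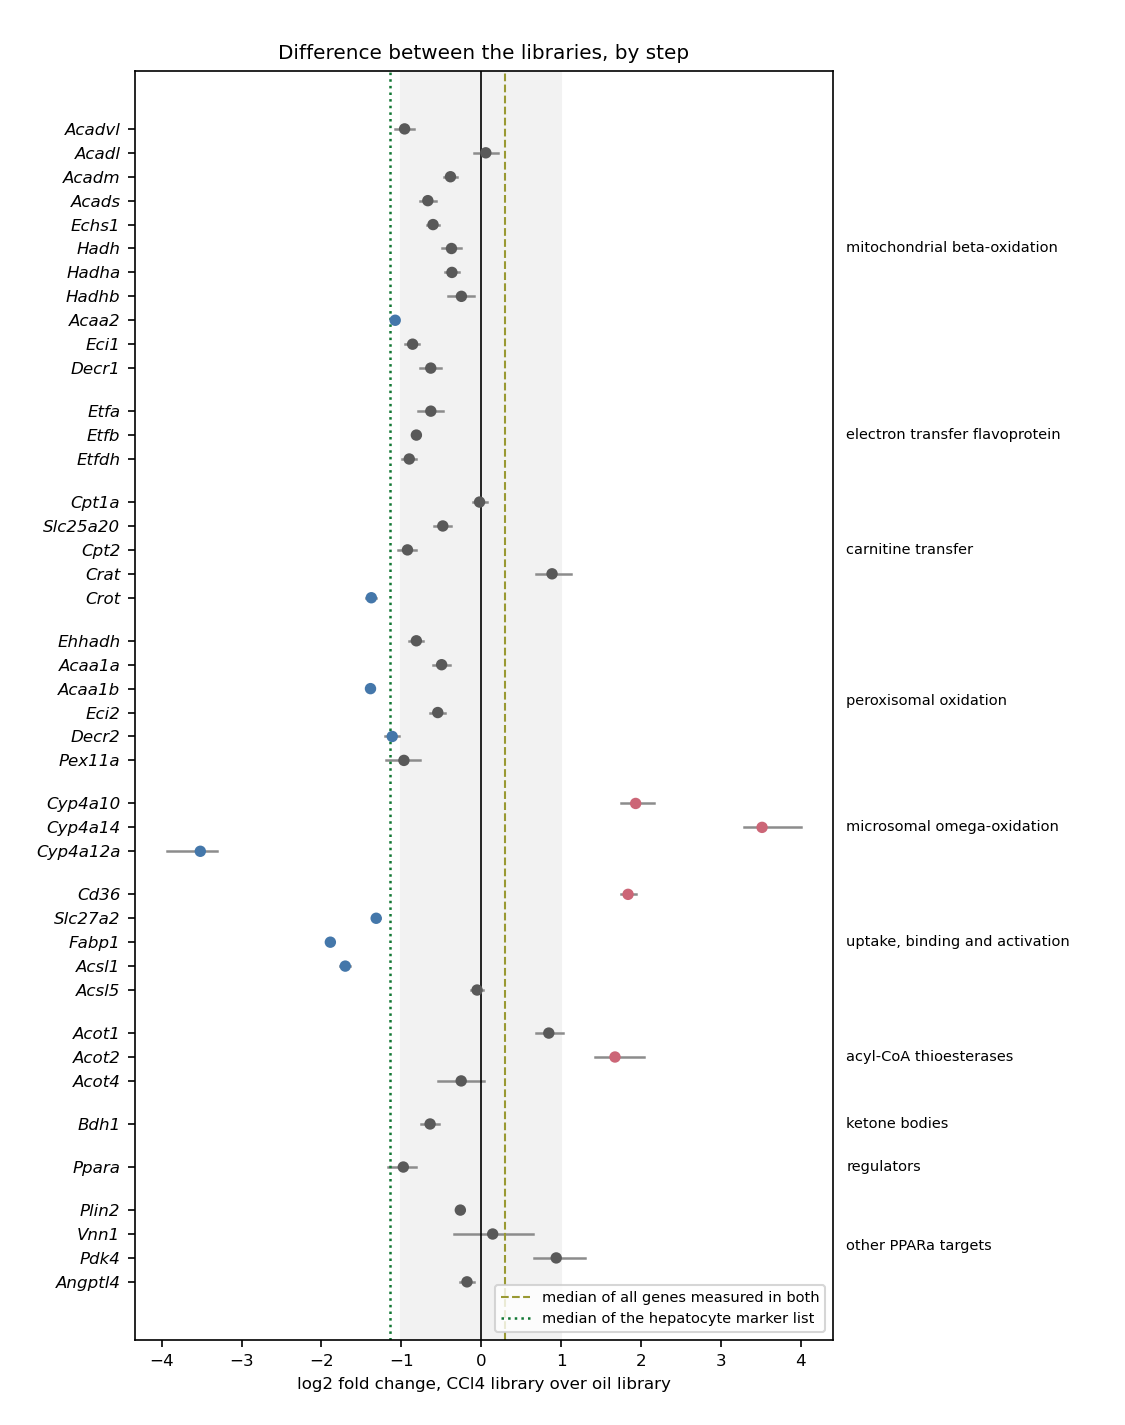
Log2 fold change of CCl4 over oil for the 42 genes by step, with points in red (at least 1 higher), blue (at least 1 lower) or grey (neither) and lines for the 95% counting interval, which leaves out any spread between mice. The dashed line is the median of all genes (0.30) and the dotted line that of the hepatocyte list (-1.14). Of the 42 genes, 35 lie left of the first and 36 lie right of the second, beside about 4.3% of all genes left of the second.

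Uptake and activation held the most abundant of the 45 genes. Fabp1, the liver's fatty acid binding protein, was at 2301 RPKM in oil, where it ranked 15 among the genes tested, and at 621 RPKM in CCl4. It was 3.70-fold lower (log2 fold change -1.89, interval from -1.91 to -1.87, on about 64987 and 19561 reads), and 0.75 below the hepatocyte list. The 45 genes together held 4947 RPKM in oil and 2199 RPKM in CCl4 as listed, and without Fabp1 they held 2646 and 1578 RPKM.

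Slc27a2 (FATP2), a fatty acid transporter that also activates very long chains, was at 189.9 RPKM in oil and 76.3 RPKM in CCl4 (-1.31). Cd36, the membrane receptor for long-chain fatty acids, was at 19.7 and 70.6 RPKM (1.84, interval from 1.75 to 1.94), and the 5 transcripts of Cd36 gave between 1.82 and 1.84. The ratio of Slc27a2 to Cd36 was 9.65 in oil and 1.08 in CCl4. Cd36 is also expressed in macrophages and endothelial cells, whose marker sums were higher in the CCl4 library as given above, and the adipocyte markers were at 0. The part of those cells in the Cd36 value was not tested.

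The pair of long-chain acyl-CoA synthetases separated too. Acsl1, the main one of liver and a PPARa target, was at 129.5 RPKM in oil and 39.7 RPKM in CCl4 (-1.70, interval from -1.77 to -1.64). Acsl5 was at 51.0 and 49.2 RPKM (-0.05, interval from -0.12 to 0.02). Acsl1 was 2.54 times the level of Acsl5 in oil and 0.81 times its level in CCl4.

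The acyl-CoA thioesterases, which free fatty acids from CoA, lie in 1 cluster on chromosome 12 of GRCm38.p6 in the order Acot2, Acot1, Acot4 and Acot3. Acot2, the mitochondrial form, was at 1.98 RPKM in oil and 6.56 RPKM in CCl4 (1.68, interval from 1.42 to 2.04). Acot1, the cytosolic form and a near copy of Acot2, was at 7.40 and 13.4 RPKM (0.85, interval from 0.69 to 1.03). The sum of these copies was at 9.39 and 20.0 RPKM (1.08), past the 2-fold mark. Acot4, a peroxisomal form whose start region holds a match shown above, was at 3.72 and 3.11 RPKM (-0.25), and Acot3 was listed at 0 in both. On the scale of all genes Acot1 was still higher, by 0.55.

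Ketone bodies are made in liver mitochondria from the acetyl-CoA of beta-oxidation. Bdh1, which makes 3-hydroxybutyrate, was at 28.4 RPKM in oil and 18.2 RPKM in CCl4 (-0.64), and its second transcript gave -0.64. It belongs with the 6 further ketone body genes described below, none of which was past the 2-fold mark.

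Of the regulators, Ppara itself was at 12.9 RPKM in oil and 6.51 RPKM in CCl4, a log2 fold change of -0.98 with an interval from -1.16 to -0.81 that holds the 2-fold mark. Its second transcript gave -0.97, and Ppara lay 0.16 above the hepatocyte list's median, just below the marker Apoh. Ppargc1a, the coactivator of fasting, was listed at 0 in both libraries.

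The 5 other targets of PPARa were not past the 2-fold mark where measured. Plin2, the coat protein of lipid droplets, was at 189 RPKM in oil and 157 RPKM in CCl4 (-0.26). Angptl4, a secreted inhibitor of lipoprotein lipase, was at 35.2 and 31.1 RPKM (-0.18). Pdk4, which shuts pyruvate dehydrogenase, was at 2.12 and 4.15 RPKM (0.94, interval from 0.66 to 1.30), an interval that holds the 2-fold mark. Vnn1, a pantetheinase, was at 1.80 and 2.0 RPKM (0.14) on about 63 and 78 reads, and its interval from -0.35 to 0.65 holds 0. Fgf21, a liver hormone, was listed at 0 in both. The textbook targets of PPARa thus did not share a direction in these libraries. Cyp4a14 and Cyp4a10 were higher and Fabp1 and Acsl1 lower by at least 1. The signs of these 4 stayed the same relative to all genes and relative to the hepatocyte list. Relative to that list Fabp1 came to -0.75 and Acsl1 to -0.56, no longer lower by at least 1. On that scale 76.0% of all genes were higher by at least 1.

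A list of 76 other genes of the same pathways was set beside them, of which 71 reached 1 RPKM. By at least 1 on the log2 scale 20 of the 71, or 28.2%, were lower and 5, or 7.04%, were higher, against the 5.25% and 15.5% of all genes tested. Among all genes with a mean of at least 20 RPKM those shares were 17.4% and 12.7%, and the list was not split at that level. The median of the 68 measured in both libraries was -0.53. Relative to the median of all genes 33 were lower and 4 higher by at least 1, beside 9.17% and 8.91% of all genes. Relative to the hepatocyte list 3 were lower and 28 higher, beside 0.608% and 76.0% of all genes.

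Peroxisomal oxidation held 9 of the 20 lower genes and 18 of the 71 tested. Over all genes tested 5.25% were lower by as much, and 17.4% of those with a mean of at least 20 RPKM. Scp2, the sterol carrier and thiolase that is the most abundant of this group, was at 945 RPKM in oil and 212 RPKM in CCl4 (-2.16). Nudt7, a peroxisomal CoA diphosphatase, was at 281 and 25.9 RPKM (-3.43). Phyh, the hydroxylase that starts the breakdown of phytanic acid, was at 349.8 and 92.3 RPKM (-1.92).

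Acox2, Hacl1, Pecr, Cat (catalase) and Acot12 had log2 fold changes from -1.5 to -1.12. Abcd2, a peroxisomal importer of very long chains, was at 1.19 and 5.57 RPKM (2.13), the 1 gene of the 18 measured in this group that was higher by at least 1. The group's median was -1.06, which is 0.08 above the hepatocyte list's median and between the markers Apoa1 and Apoh. Only 10 of the 18 lay above that list's median, below which about 4.3% of all genes lay.

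The 6 further ketone body genes had log2 fold changes from -0.97 to -0.03, none past the 2-fold mark, and all 6 lay above the hepatocyte list. The counting interval of the one nearest 0, from -0.38 to 0.32, holds 0. In mitochondria Acsm1, a medium-chain synthetase and the most abundant of its group in oil, was at 98.2 and 30.0 RPKM (-1.71) and Acad11 at 46.3 and 21.0 RPKM (-1.13). The 7 remaining measured genes of that group were not past the 2-fold mark.

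Among the microsomal genes Cyp4f14, the most abundant, was at 50.3 and 24.6 RPKM (-1.03), Cyp4f15 at 22.0 and 9.01 RPKM (-1.28) and Cyp4a32 at 3.11 and 1.48 RPKM (-1.02). Cyp4a12b was at 5.20 RPKM in oil and was listed at 0 in CCl4, and Cyp4a31 was listed at 0 in oil and was at 1.52 RPKM in CCl4.

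Of the 9 measured uptake genes 2 were lower and 2 higher by at least 1, and 5 were neither. Over all genes tested 5.25% were lower and 15.5% higher by as much. Slc27a5, the bile acid and fatty acid ligase of hepatocytes, was at 265 and 100.3 RPKM (-1.40), and Fabp2 at 18.9 and 5.55 RPKM (-1.75). Slc27a1, the FATP of muscle and fat, was at 2.65 and 11.0 RPKM (2.01), and Fabp4, the binding protein of adipocytes, macrophages and endothelial cells, at 34.4 and 84.6 RPKM (1.30). Dbi, the acyl-CoA binding protein and the most abundant of the group, was at 518 and 297 RPKM (-0.80). Fabp1 was 66.9 times the level of Fabp4 in oil and 7.34 times its level in CCl4, beside the same macrophage and endothelial marker sums as for Cd36, whose part was not tested.

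Of the 13 regulators 2 were past the 2-fold mark, both lower, beside 5.25% lower and 15.5% higher among all genes tested. Lpin1, a phosphatase that also acts with PPARa, was at 59.3 and 17.2 RPKM (-1.78) and Lpin2 at 41.6 and 14.6 RPKM (-1.51). Rxra, the DNA-binding partner of PPARa and the most abundant regulator, was at 67.7 and 59.1 RPKM (-0.19), so that Ppara and its partner differed in their values.

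Of the lipid droplet and lipolysis genes, G0s2, an inhibitor of the lipase ATGL, was at 9.20 and 48.5 RPKM (2.39) and Ucp2 at 18.3 and 41.4 RPKM (1.17). Cidec, a droplet fusion protein, was at 2.11 RPKM in oil and was listed at 0 in CCl4, which counts as lower when the 0 is set to 1 RPKM. Mgll, a monoglyceride lipase and the most abundant of the group in oil, was at 28.4 and 27.9 RPKM (-0.03).

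**Figure D5:**
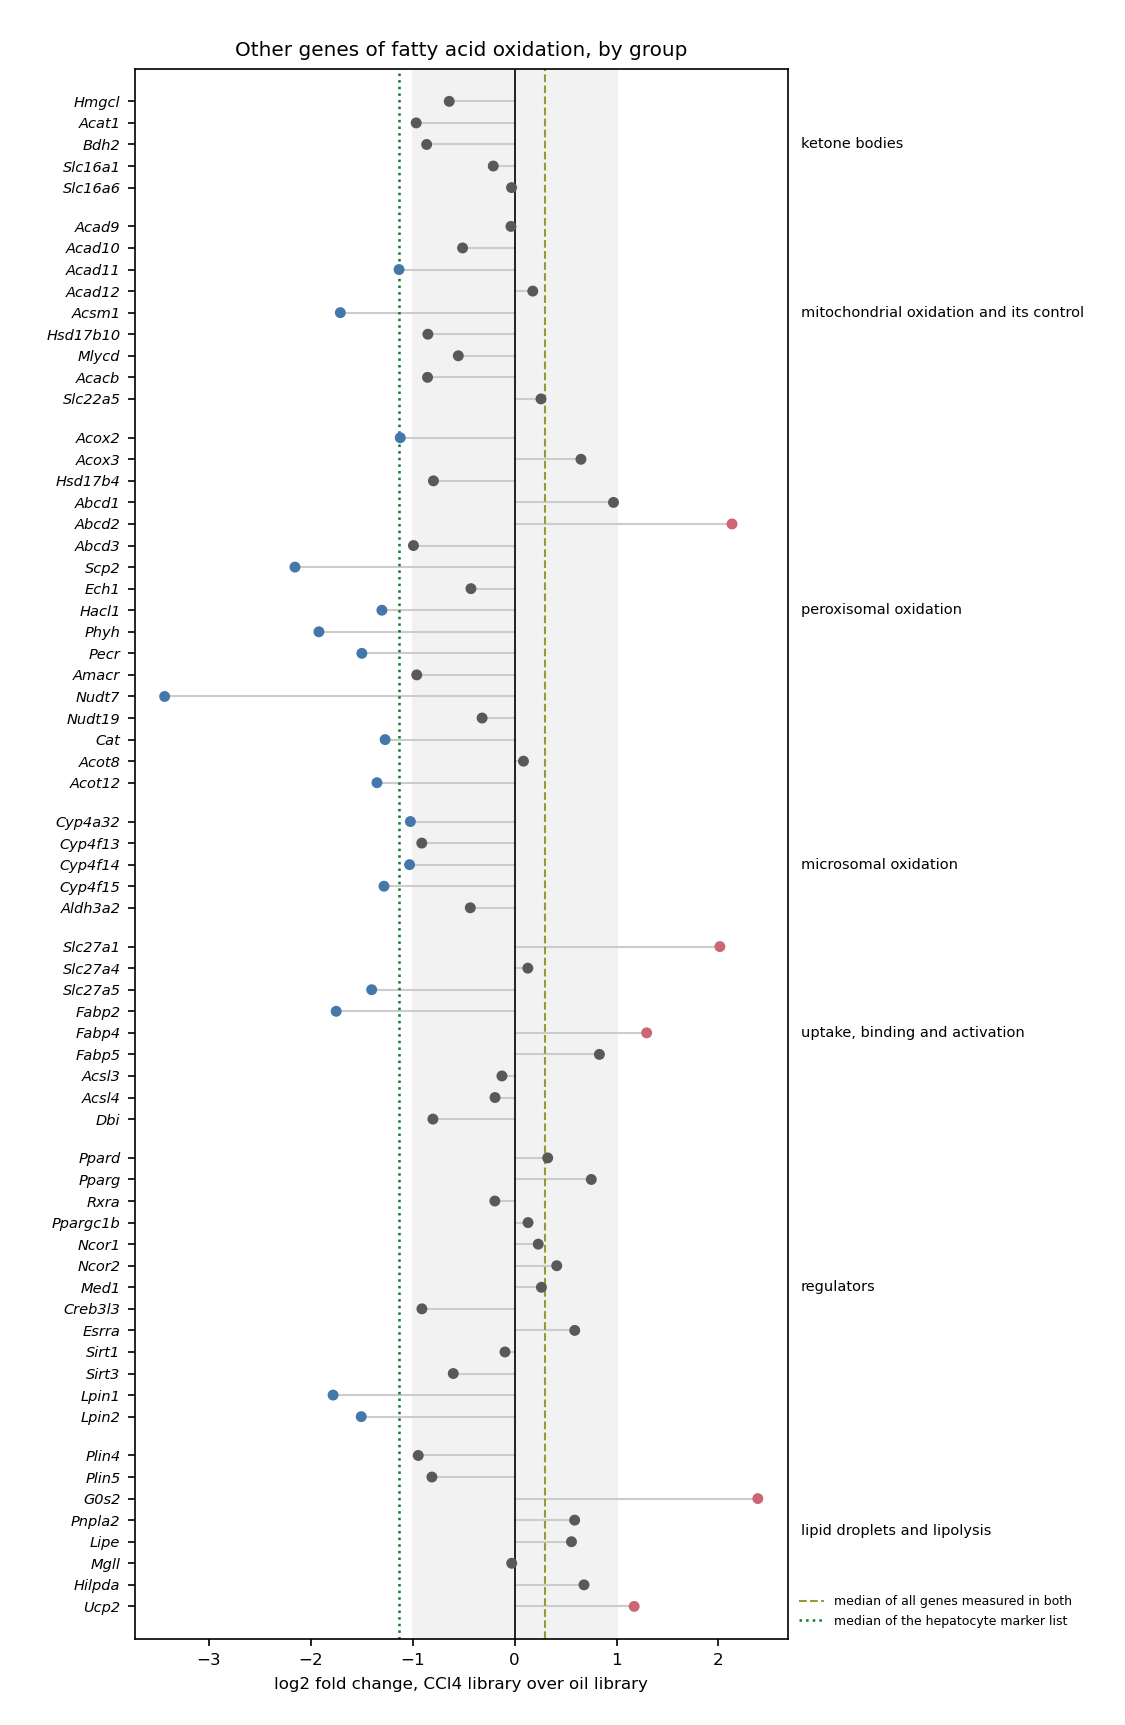
Log2 fold change of CCl4 over oil for 66 of the 68 other pathway genes measured in both libraries, by group, with points in red (at least 1 higher), blue (at least 1 lower) or grey (neither). The dashed line is the median of all genes (0.30) and the dotted line that of the hepatocyte list (-1.14), and the peroxisomal group holds the lowest point, Nudt7 at -3.43.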

How the data were processed

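RNA-seq of 2 libraries was analysed, 1 from oil-injected and 1 from CCl4-injected mice, as the labels map them. The authors deposited RPKM values for annotated mRNAs, lncRNAs and new lncRNAs, with values under 1 RPKM listed as 0 (checked against a table of the new lncRNAs without that limit), and read counts and transcript lengths for the new lncRNAs. Their tables also hold log2 fold changes, p-values and q-values of the comparison, which were not used. The submitters' processing notes name CASAVA 1.4, TopHat2 and mm10 with no roles, and the counting program and annotation are not given in the sources used here. RefSeq symbols of GRCm38.p6, the assembly that mm10 names, were matched to 27049 of 27457 mRNA transcripts. The 408 others were left out.

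Genes at 1 RPKM or more in at least 1 library were tested by fold alone: log2((CCl4 + 0.1)/(oil + 0.1)) of at least 1 or at most -1, with a listed 0 set to 1 RPKM for the call. No fold is printed where a value was listed at 0. On the log2 scale with 0.1 RPKM added, a fold change understates that of low genes. Library totals were found as those at which short RefSeq genes hold whole reads (194 of 202 genes in oil and 207 of 214 in CCl4 within 0.02 reads plus a small share of the count), and each gene's reads at the shortest transcript length that gives whole reads in both libraries, or at 1 kb where that length was longer (transcript lengths were not at hand), gave a 95% Clopper-Pearson interval of its ratio. Reads are not independent molecules, so intervals cover counting error only. The steps were tested on simulated data. Every gene of the group was named; of the other pathway genes, those past the fold and the most abundant in oil of each group, except 2 genes that are in the counts but not reported here by name; of the marker lists, their counts, sums and most abundant gene. The genes and lists were chosen with earlier results of these data known. Alternatives covered the amount added, the scale, transcripts, filters and the threshold. Python 3.11.15, pandas 2.3.3, numpy 2.4.6, scipy 1.17.1 and matplotlib 3.10.9 were used.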

Additional observations from a re-analysis of the deposited data

How the results depend on the processing

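With 1 library per condition, these results have no replicate, and no setting below stands for one. Scaling moves every gene alike, so shares of all genes are given beside the counts. Centred on the median of all genes, 16 genes were lower (against 9.17% of all genes), their median log2 fold change was -0.87, and 33 other pathway genes were lower. Centred on the hepatocyte list, 11 genes were higher and 1 lower (against 76.0% and 0.608% of all genes) with a median of 0.57, Acaa2 came to 0.0619 and Decr2 to 0.0245, and 28 other pathway genes were higher and 3 lower. With libraries scaled to the mRNA sum without the 10 most abundant transcripts, 7 genes were higher (against 20.8% of all genes) and the median was -0.41. At a threshold of 2 on the log2 scale, 1 gene was higher and 1 lower, with 3 and 3 of the other pathway genes (against 2.17% and 0.783% of all genes). At 0.5 they were 7 and 22, with 14 and 37 (against 38.3% and 12.9%). Of 2 alternatives chosen after seeing the data, leaving out the genes with near-identical copies left 1 higher, and a mean of at least 20 RPKM left 1 higher. With 1 RPKM or nothing added, transcripts summed, a mean of at least 5 RPKM, or zeros taken as 0 with and without the filter, the counts of genes and of other pathway genes stayed within 1.5 times. Of the 42 fatty acid genes, Acaa2 and Decr2, named above, were the 2 past the threshold whose sign changed under a setting run. Of the other pathway genes past it, Acad11, Acox2, Cyp4f14 and Cyp4a32 also stood above 0 relative to the hepatocyte list. Like Acaa2 and Decr2, they lay between the markers Apoa1 (-1.31) and Apoh (-0.97), which flank the list's median. Among the 42 fatty acid genes the counting interval is widest for Vnn1, and values under 1 RPKM cannot be read.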

Other observations

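Cyp4a12a is one of the genes that male mouse liver expresses far above female liver, and other such genes were looked up after its value was seen, so the list is a description. All 11 further male-predominant genes were lower in the CCl4 library by at least 1 on the log2 scale. So were 5.25% of all genes tested, and 17.4% of those with a mean of at least 20 RPKM. The 11 genes had a summed level of 8224 RPKM in oil and 790 RPKM in CCl4. Serpina1e was at 4890.2 and 339 RPKM (log2 fold change -3.85), Selenbp2 at 491 and 19.5 RPKM (-4.64), Cyp7b1 at 58.8 and 1.88 RPKM (-4.90) and Slco1a1 at 47.7 and 2.67 RPKM (-4.11). Hsd3b5, Elovl3 and Mup21 were at 74.8, 205 and 35.7 RPKM in oil and were listed at 0 in CCl4. The 8 with a value in both libraries had a median of -3.42, beside -3.52 for Cyp4a12a, and all 8 lay below the hepatocyte list. Of 11 female-predominant genes all were listed at 0 in oil, and in CCl4 only Cyp2b9 and Cyp2a4 were listed above 0, at 2.40 and 3.41 RPKM. The Y-linked genes Ddx3y, Uty, Kdm5d and Eif2s3y were between 2.59 and 11.3 RPKM in oil and between 3.26 and 9.34 RPKM in CCl4, and both transcripts of Xist were listed at 0 in both libraries.

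The peroxisome-building genes named Pex were also listed after the values were seen. Of 16 genes with that symbol other than Pex11a, 15 were measured, and their median log2 fold change was -0.28. None was past the 2-fold mark in either direction, beside 5.25% lower and 15.5% higher among all genes tested. Pex11g was the lowest, at 20.8 and 10.6 RPKM (-0.97), and Pex10 the highest, at 1.83 and 3.50 RPKM (0.90). All 15 lay above the hepatocyte list, as did all but about 4.3% of all genes, and 14 lay below the median of all genes.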
